A study of Mus musculus with 24 samples.

Results

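Expression of 10 genes of the Notch pathway was followed in mouse embryonic stem cells (ESCs) and in neural progenitor cells (NPCs) derived from them. The genes were listed by name: the receptors Notch1, Notch2 and Notch3, the ligands Dll1, Dll3, Jag1 and Jag2, and the targets Hes1, Hes5 and Hey1. All 10 were found, each on 1 line, among the 21909 gene symbols of the RNAseq tables. The ESCs were of the E14 line and grew untreated in N2/B27 medium with LIF (1000 U/ml) and the inhibitors CHIR99021 (3 µM, against GSK3β) and PD0325901 (1 µM, against MEK), without feeder cells. The NPCs came from E14 ESCs through embryoid bodies in medium with fetal calf serum, were taken after 8 days, and received retinoic acid (2 µM) during the last 4 days. Polyadenylated RNA was sequenced from 3 samples of each cell type, which according to the labels were separate culture dishes. The labels name no batch shared by ESCs and NPCs, which are in separate tables, and a batch could therefore not be told apart from the cell type. The labels and the methods of the study differ in the library kit and the read layout they name for RNAseq, and which sample had which is not given in the sources used here. What part this has in differences between samples, or between the cell types, was not tested. Each value is relative to the reads of its own library.

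Notch signalling passes between neighbouring cells. A Delta-like or Jagged ligand on one cell binds a Notch receptor on the next, the receptor is cut by an ADAM protease and then by gamma-secretase, and its intracellular part enters the nucleus, where it joins RBPJ and a Mastermind coactivator and switches on genes of the Hes and Hey families. These genes encode basic helix-loop-helix repressors, which in the developing nervous system hold down proneural genes such as Neurog2 and keep progenitors from turning into neurons.

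The deposited values are reads per kilobase scaled to the depth of each library (RPKM). Multiplied by the length of the whole gene body, introns included, they gave whole reads within 0.02 of a read for 94.4% to 94.6% of the values under 500 reads, whereas with exon length they did so for 6.23% to 6.65%. An RPKM is therefore lower in a gene with long introns than in a compact gene with the same RNA, and it serves here to compare 1 gene between samples. Where genes are compared with each other, the recovered reads were divided by the length of all annotated exons of the gene and scaled to library depth in the same way (exon-scaled level, or level on the exon scale). That length joins the exons of all annotated transcripts of a gene, so that shares and orders between genes depend on the annotation. According to the methods of the study the reads were counted over exons, and whether any intronic reads entered the values was not tested. The library totals that give these whole reads were 34051992, 33732018 and 30779728 reads in ESC replicates 1 to 3 and 30151252, 27262786 and 32297555 in NPC replicates 1 to 3.

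ESC replicate 3 stood apart from the other ESC samples. Relative to the mean of ESC replicates 1 and 2, its median log2 ratio was 0.46 over the quartile of genes with the shortest exon length (up to 2.83 kb) and −0.81 over the quartile with the longest (from 6.87 kb), while the log2 ratio of ESC replicate 1 to replicate 2 lay between −0.03 and 0.03 in all quartiles. The scatter of reads between samples, as the mean chi-square per gene, where 1 is sampling noise, was 6.17 for ESC replicates 1 and 2, 305 and 327 for the pairs with ESC replicate 3, and 3.1 to 8.99 among NPC samples. The receptors have a longer exon length than the targets: annotated exons add up to 14.2 kb in Notch1, 10.8 kb in Notch2 and 8.09 kb in Notch3, against 2.04 kb in Hes1, 1.36 kb in Hes5 and 3.27 kb in Hey1. In ESC replicate 3, Notch1 was at 0.21 times the mean of the other ESC samples, Notch3 at 0.281 times and Notch2 at 0.382 times, whereas Hes1 was at 1.39 times and Hey1 at 1.34 times. Of the ligands, Dll3 was at 1.92 times, Dll1 at 0.786 times, Jag2 at 0.595 times and Jag1 at 0.48 times. The exon lengths of Hey1, Dll1 and Dll3 fall in the quartile from 2.84 to 4.47 kb, whose median log2 ratio was −0.04. The differences of the 10 genes and the counts of changed genes are given with and without this library.

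Levels of pluripotency markers separated the cell types the way their labels do. On the exon scale, 7 ESC markers (Pou5f1, Nanog, Sox2, Zfp42, Esrrb, Klf4 and Tfcp2l1) summed to 1360, 1370 and 1340 in ESCs and to 11.2, 12.7 and 14.2 in NPCs. All 7 fell in NPCs, 5 of them after passing the filter on low values (described with the test) through ESCs alone, which fixes that direction. In NPCs the most abundant of them was Sox2, which neural progenitors also express, with 8.43. The 6 markers of neural progenitors and radial glia (Pax6, Nes, Sox1, Vim, Fabp7 and Slc1a3) summed to 73 to 91.6 in ESCs and to 142 to 152 in NPCs, led by Vim in both; Pax6, Nes and Sox1 rose, Pax6 and Sox1 after passing the filter through NPCs alone, and Vim rose too without ESC replicate 3. Pax6, the marker of radial glia named in the labels, had 0.0134, 0.0167 and 0.00457 RPKM in ESCs against 1.55, 1.42 and 1.67 in NPCs. Nes had 3.79, 3.25 and 3.33 RPKM in ESCs against 29.8, 32.7 and 29.4 in NPCs.

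Markers of other lineages also moved with the cell type. All 4 endoderm markers (Foxa2, Sox17, Gata4 and Gata6) were under 1 RPKM in every ESC sample and above it in every NPC sample, so that they passed the filter through NPCs alone and in this direction. Their summed exon-scaled level was 0.546 to 0.93 in ESCs and 145 to 151 in NPCs, led by Gata4 with 110. The 4 endothelial markers summed to 17 to 23.3 in ESCs, led by Pecam1, and to 32.8 to 39.2 in NPCs, led by Kdr with 14.9. They did not move as a group: mean exon-scaled levels of Kdr and Cdh5 were 0.414 and 0.0047 in ESCs and 14.9 and 11.3 in NPCs, whereas those of Pecam1 and Tek were 17.1 and 3.45 in ESCs and 6.70 and 2.55 in NPCs. Kdr passed the filter, through NPCs alone, and rose; without the filter 2 of the 4 rose and 1 fell. Among the 4 markers of neural crest and mesenchyme, Pdgfra and Acta2 rose and Foxd3 fell, each having passed the filter through 1 cell type alone, and the sum of the list was 7.25 to 8.28 in ESCs and 36.5 to 42.2 in NPCs, led by Acta2 with 20.8. The 5 neuron markers summed to 80.4 to 106 in ESCs, led by Stmn2, and to 34 to 41.9 in NPCs, led by Tubb3. Of these, Stmn2 and Tubb3 passed the filter and fell, Stmn2 after passing through ESCs alone, while without the filter 3 of the 5 rose and 2 fell. Dcx was listed at 0 in all ESC samples and had 1.05, 0.822 and 0.874 RPKM in NPCs. Elavl3 had 0.0262, 0.0216 and 0.0272 RPKM in ESCs and 0.866, 0.735 and 0.877 in NPCs, and Map2 had 0.00754 to 0.0170 in ESCs and 0.137 to 0.152 in NPCs. The 5 markers of presomitic and early mesoderm summed to at most 4.1 in any sample, with Msgn1 listed at 0 in all 6, and the 3 glia markers to at most 0.328, with Aqp4 and S100b listed at 0 in all ESC samples. Of the 21 markers tested, 9 passed the filter through NPCs alone and 7 through ESCs alone, against 17.1% and 7.04% of all tested lines. What part cells of these other types had in the levels given here was not tested, and in bulk RNA fewer cells of a type and less RNA per cell cannot be told apart.

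NPCs were compared with ESCs by limma on log2(RPKM + 1) over the 7907 lines with at least 1 RPKM in at least 3 of the 6 samples, with Benjamini-Hochberg adjustment over all of them. Because RPKM is taken per gene body here, the filter removes genes with long introns at more reads than compact genes. Rbpj, over 191 kb, had 2508 to 3930 reads per sample and did not pass. Hes5 passed with 109, 141 and 164 reads in NPCs. A gene that did not pass the filter is therefore not always one with little RNA. Differences on the log2(RPKM + 1) scale understate the fold change of a gene with low values. Of the tested lines, 5551 (70.2%) had an adjusted p under 0.05, 2915 (36.9%) with higher and 2636 (33.3%) with lower values in NPCs; without ESC replicate 3 the total was 6951 (87.9%), 3464 higher and 3487 lower. Which direction had more lines depended on the setting: quantile normalization gave 2702 higher and 3022 lower. Among the 10 Notch pathway genes, 8 passed the filter, and of these 5 rose in NPCs (Notch2, Notch3, Dll1, Hes5 and Hey1), none fell, and Notch1, Jag1 and Hes1 did not pass the test. The 5 that rose were under 1 RPKM in all ESC samples and passed the filter through NPCs alone, which fixes their direction, and 62.5% of the 8 passed the test in either direction, against 70.2% of all tested lines. Without ESC replicate 3 the same 5 rose and Jag1 fell. Dll3 and Jag2 did not pass the filter.

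**Figure D1:**
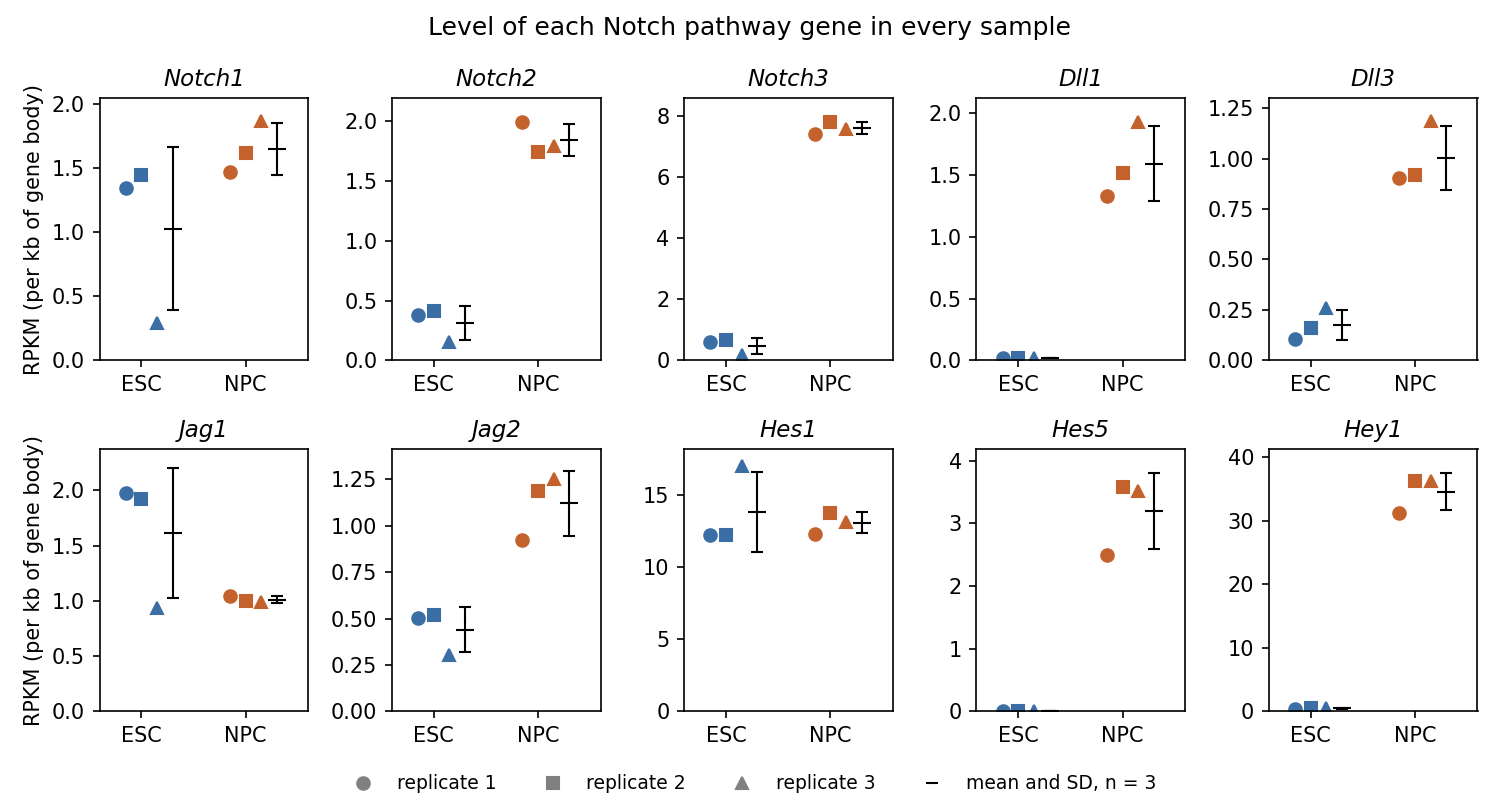
Level of each of the 10 genes in every sample, in RPKM (per kilobase of gene body) on the vertical axis (each panel has its own scale from 0), for 3 ESC samples in blue and 3 NPC samples in orange, with the mean and SD of each group. Hey1 sits between 0.445 and 0.609 in ESCs and between 31.3 and 36.3 in NPCs, and ESC replicate 3 (triangle) lies apart from the other ESC samples for Notch1, Jag1 and Hes1.

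All 3 receptors had their highest values in NPCs, with the largest difference for Notch3 and the smallest for Notch1. Notch3, a receptor best known from vascular smooth muscle and also present in neural progenitors, had 0.613, 0.662 and 0.179 RPKM in ESC replicates 1 to 3 and 7.43, 7.81 and 7.58 in NPCs. Every NPC sample was far above every ESC sample, and the spread within each group was small beside the distance between them. Its mean was 15.7 times higher in NPCs, or 11.9 times without ESC replicate 3, and the difference of log2(RPKM + 1) was 2.55 ± 0.14 (SE, n = 3 per group; adjusted p = 7.5e-06, limma with Benjamini-Hochberg adjustment). In reads, ESC samples held 962, 1029 and 254 and NPC samples 10315, 9807 and 11278.

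Notch2, a receptor widely used in embryonic tissues, had 0.376, 0.412 and 0.151 RPKM in ESCs and 2.00, 1.74 and 1.79 in NPCs. The groups did not overlap, and again ESC replicate 3 was the lowest. The NPC mean was 5.89 times the ESC mean, or 4.68 times without that library, with a log2 difference of 1.12 ± 0.09 (SE; adjusted p = 4.5e-05, limma with Benjamini-Hochberg adjustment). The gene body spans 137 kb, with 10.8 kb of exons, so that these low RPKM stand for 635 to 1902 reads per ESC sample and 6495 to 8248 per NPC sample.

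Notch1, the receptor most studied in neural stem cells, gave 1.35, 1.45 and 0.294 RPKM in ESCs and 1.47, 1.62 and 1.87 in NPCs. NPC samples were all above ESC samples, but ESC replicates 1 and 2 lay close under the lowest NPC sample, and ESC replicate 3 was far below all others. The ratio of the means was 1.61 with all samples and 1.18 without that library. The log2 difference of 0.44 ± 0.24 (SE) had a 95% interval of −0.15 to 1.03 and did not pass the test (adjusted p = 0.15, limma with Benjamini-Hochberg adjustment). Without ESC replicate 3 it was 0.14, with an interval of −0.01 to 0.30 and an adjusted p of 0.0695 in the same limma fit, and over all alternatives run for Notch1 the adjusted p ranged from 0.0261, in limma voom on the recovered reads without ESC replicate 3, to 0.45.

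The receptors made up different shares of their summed RNA in ESCs and NPCs. On the exon scale, where transcripts of different length can be added, Notch1, Notch2, Notch3 and Notch4 together reached 15.8, 17.4 and 5.79 in ESCs and 77.8, 77.6 and 77.6 in NPCs. This sum was 5.97 times higher in NPCs, or 4.68 times without ESC replicate 3, which had the lowest sum. Notch1 made up 35.2%, 34.3% and 20.9% of it in ESCs and 7.8%, 8.6% and 9.96% in NPCs. For Notch3 the shares were 22.1%, 21.7% and 17.6% in ESCs and 54.3%, 57.3% and 55.6% in NPCs. Notch3 was the smallest of the 3 listed receptors in every ESC sample and the largest in every NPC sample, while the share of Notch2 was 30% to 33% in ESCs and 28.5% to 32.6% in NPCs, with overlapping ranges.

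**Figure D2:**
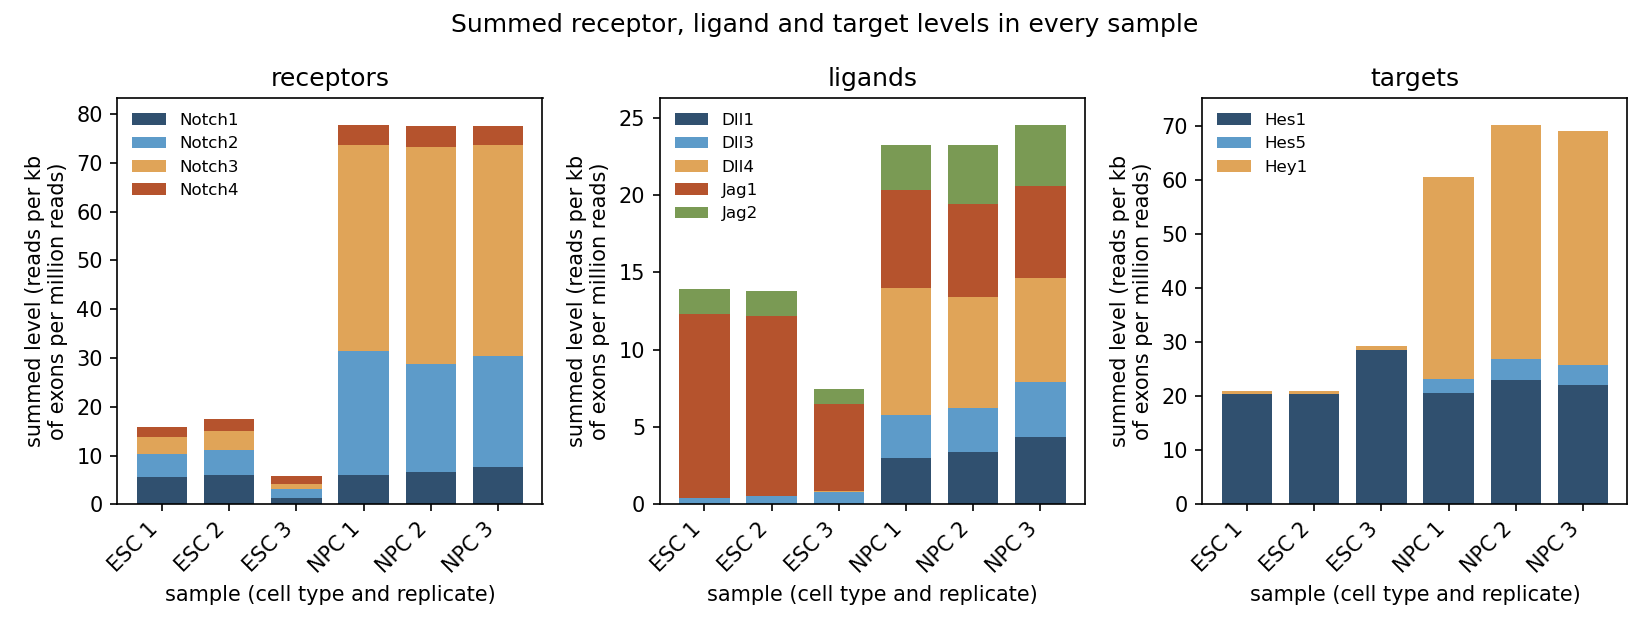
Summed exon-scaled level (reads per kilobase of exons, scaled to library depth, vertical axes from 0) of the 4 receptors, of 5 ligands and of the 3 listed targets in each of the 6 samples, with 1 colour per gene. The receptor sum is 77.6 to 77.8 in the 3 NPC samples and is mostly Notch3, while Jag1 makes up 75.7% or more of the ligand sum in every ESC sample and Hes1 97.4% or more of the target sum.

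Of the 4 ligands, Dll1 rose and Jag1 lay in the opposite direction. Dll3 and Jag2 did not pass the filter, but had higher values in every NPC sample than in any ESC sample. Dll1, the Delta ligand that differentiating neural cells present to their neighbours, had 0.0216, 0.0218 and 0.0171 RPKM in ESCs and 1.33, 1.51 and 1.92 in NPCs. The ESC values stand for 7, 7 and 5 reads, close to none, and the NPC values for 382, 392 and 591 reads. The mean was 78.8 times higher in NPCs, or 73.2 times without ESC replicate 3, with a log2 difference of 1.34 ± 0.08 (SE; adjusted p = 1.2e-05, limma with Benjamini-Hochberg adjustment).

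Jag1, a Jagged ligand found in many epithelia and vessels, had 1.98, 1.93 and 0.936 RPKM in ESCs and 1.04, 1.00 and 0.990 in NPCs. ESC replicates 1 and 2 were above all NPC samples and ESC replicate 3 was below all of them, so that the groups overlapped through this library alone. With all samples the log2 difference was −0.35 ± 0.17 (SE), with a 95% interval of −0.75 to 0.05, and did not pass the test (adjusted p = 0.102, limma with Benjamini-Hochberg adjustment). Without ESC replicate 3 it was −0.55, with an interval of −0.63 to −0.48 and an adjusted p of 2.2e-06 in the same limma fit, and the ESC mean was 1.93 times the NPC mean. The difference also passed with all samples after quantile normalization (−0.79) and after median scaling (−0.39). Over all alternatives the adjusted p of Jag1 in limma with Benjamini-Hochberg adjustment ranged from 3.8e-08 to 0.256, and the sign stayed negative in all of them.

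Dll3, a Delta family member that acts within its own cell rather than as an activating ligand, had 0.108, 0.160 and 0.258 RPKM in ESCs and 0.905, 0.921 and 1.18 in NPCs. Jag2, the second Jagged ligand, had 0.502, 0.518 and 0.303 RPKM in ESCs and 0.921, 1.19 and 1.25 in NPCs. For both genes every NPC sample was above every ESC sample. The ratio of the means was 5.71 for Dll3 and 2.54 for Jag2, or 7.47 and 2.20 without ESC replicate 3. Tested over the 18504 lines above 0 in any sample, of which 62.4% passed, both passed: the log2 difference of Dll3 was 0.77 (adjusted p = 0.000425, limma with Benjamini-Hochberg adjustment). That of Jag2 was 0.56 (adjusted p = 0.00356 in the same limma fit). Over the 6 alternatives that could test them, the adjusted p of limma ranged from 7.4e-07 to 0.000583 for Dll3 and from 1.6e-05 to 0.00453 for Jag2.

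On the exon scale the sum of Dll1, Dll3, Dll4, Jag1 and Jag2 was 13.9, 13.8 and 7.47 in ESCs and 23.2, 23.2 and 24.5 in NPCs. In ESCs the ligand RNA was chiefly Jag1, with 85.9%, 84.3% and 75.7% of the sum. In NPCs no ligand held more than 35.4%: Dll4, which was not among the 10 genes, had 35.4%, 30.9% and 27.2%, Jag1 27.2%, 26.1% and 24.4%, and Dll1 13%, 14.7% and 17.7%.

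The targets behaved in 3 ways: Hey1 rose from a low level, Hes5 was seen in NPCs alone, and Hes1 was abundant in both cell types. Hey1, a repressor of the Hairy-related family, had 0.445, 0.464 and 0.609 RPKM in ESCs and 31.3, 36.3 and 36.3 in NPCs. The groups were far apart, with 59 to 73 reads in ESC samples and 3672 to 4562 in NPC samples. The mean was 68.4 times higher in NPCs, or 76.1 times without ESC replicate 3, and the log2 difference of 4.56 ± 0.10 (SE; adjusted p = 1.9e-07, limma with Benjamini-Hochberg adjustment) was number 27 among the rises of all 7907 tested lines. Among the 8 tested genes it was the largest difference on this scale.

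Hes5, the Hes gene most closely tied to Notch activity in neural progenitors, was listed at 0 in all 3 ESC samples and had 2.50, 3.57 and 3.51 RPKM in NPCs. No read was recovered from the ESC libraries, against 109, 141 and 164 reads in the NPC samples. Taking 3 reads over the ESC libraries as the limit that a count of 0 allows, which covers counting error only, the level relative to library depth was at least 152-fold higher in NPCs. The log2 difference was 2.06 ± 0.11 (SE; adjusted p = 5.6e-06, limma with Benjamini-Hochberg adjustment), a size that depends on the added 1 RPKM.

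Hes1, a target that many signals besides Notch control, had 12.2, 12.2 and 17.0 RPKM in ESCs and 12.3, 13.7 and 13.1 in NPCs. ESC replicate 3 was the highest of the 6 samples, ESC replicates 1 and 2 were the lowest, and the NPC samples lay between them. The log2 difference of −0.06 ± 0.14 (SE) had a 95% interval of −0.41 to 0.29 and did not pass the test (adjusted p = 0.719, limma with Benjamini-Hochberg adjustment). The sign turned without ESC replicate 3, with 0.09, an interval of −0.04 to 0.22 and an adjusted p of 0.169 in the same limma fit, and with quantile normalization, with 0.18. Over all alternatives the adjusted p of Hes1 in limma ranged from 0.0932 to 0.92.

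Together the 3 targets summed to 21, 21 and 29.2 on the exon scale in ESCs and to 60.5, 70.1 and 69 in NPCs. Hes1 made up 97.5%, 97.4% and 97.5% of this sum in ESCs and 34%, 32.8% and 31.9% in NPCs. Hey1 held 61.6%, 61.8% and 62.7% of it in NPCs, so that the most abundant target RNA was Hes1 in every ESC sample and Hey1 in every NPC sample. Hes5 held 4.38%, 5.41% and 5.4% in NPCs.

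**Figure D3:**
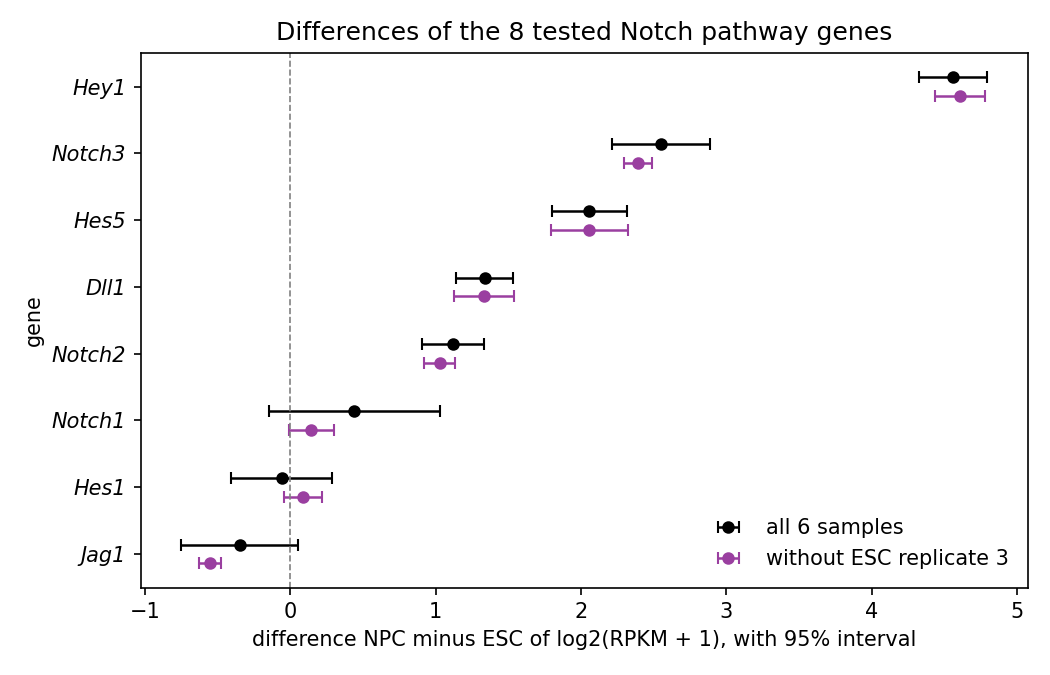
Difference NPC minus ESC of log2(RPKM + 1), on the horizontal axis, of the 8 genes that passed the filter, with 95% intervals from limma for all 6 samples (black) and without ESC replicate 3 (purple). The intervals of Hey1, Notch3, Hes5, Dll1 and Notch2 lie above 0 in both, that of Jag1 lies below 0 without ESC replicate 3, and those of Notch1 and Hes1 include 0 in both.

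Ordered by exon-scaled level, ESCs were led by Hes1 with a mean of 23.1, followed by Jag1 with 9.74, Notch1 with 4.25, Notch2 with 3.97 and Notch3 with 2.76. The ranges of Jag1, Notch1, Notch2, Notch3 and Jag2 overlapped from neighbour to neighbour, but without ESC replicate 3 the order was the same and no neighbours overlapped. The low end held Jag2 with 1.39, Hey1 with 0.604, Dll3 with 0.535, whose range overlapped that of Hey1, Dll1 with 0.0455 and Hes5 at 0. In NPCs Notch3 (43.3) and Hey1 (41.3) came first with overlapping ranges. Notch2 (23.4) and Hes1 (21.9) followed, whose ranges overlapped too, then Notch1 (6.82) and Jag1 (6.11), again overlapping. Dll1, Jag2, Hes5 and Dll3 closed the order with means between 3.06 and 3.58, and neighbours among them did not differ beyond their ranges.

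Of 68 other genes of the pathway, 40 passed the filter, and 28 of these rose and 6 fell in NPCs, while 6 did not pass the test. That is 85% of the tested genes, with a median log2 difference of 0.65, against 70.2% and a median of 0.02 over all tested lines. Of all tested lines 36.9% rose and 33.3% fell, and the counts by role given below stand beside these shares. Of the 40, 13 (32.5%) passed the filter through NPCs alone, against 17.1% of all tested lines, and 1 through ESCs alone. The filter fixes the direction of such genes, among them Notch4, Dll4, Dlk1, Adam10, Dtx4, Heyl, Neurog1 and Neurog2, which could pass only as rises, and Dtx1, which could pass only as a fall. Without ESC replicate 3, 30 rose and 6 fell, which is 90% against 87.9% of all tested lines, and the median was 0.47. The added rises were 1 among the ADAM protease and gamma-secretase genes and 1 in the nuclear activating complex, and no other role changed its counts. Without a filter, 44 rose and 11 fell among 67 genes, or 82.1% against 62.4% of all 18504 lines. Quantile normalization gave 23 rises and 4 falls among the 40, while 5724 of the 7907 lines passed. The share of pathway genes that passed was then no longer above that of all tested lines.

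Among the other receptors and ligands, Notch4, a receptor best known from vessels, had 0.656, 0.809 and 0.547 RPKM in ESCs and 1.37, 1.44 and 1.32 in NPCs, and rose with a log2 difference of 0.51, or 0.46 without ESC replicate 3. Dll4, the Delta ligand of the endothelium that is also made in neural tissue, had 0, 0 and 0.0128 RPKM in ESCs and 3.10, 2.71 and 2.52 in NPCs. Dlk1, an imprinted relative of the Delta ligands without their receptor-binding DSL domain, went from 0, 0.0395 and 0 RPKM in ESCs to 52.8, 66.0 and 67.5 in NPCs. Both were near 0 in ESCs and rose in NPCs; the size of their log2 difference depends on the added 1 RPKM and is not given. Of the endothelial markers, Kdr and Cdh5 were higher in NPCs, Pecam1 was lower, and Tek had a lower mean with overlapping groups. The part of endothelial cells in the values of Notch4 and Dll4 was not tested. Dlk2 (0 to 0.0529 RPKM over all samples) and Dner (0.00776 to 0.0123 RPKM) did not pass the filter. Of the 4 ubiquitin ligase genes that act on ligands in the cell sending the signal, 2 passed the filter and rose. Mib1 rose, with 1.66, 1.59 and 0.706 RPKM in ESCs against 4.40, 4.29 and 4.57 in NPCs. Mib2 rose too, with 3.11, 2.99 and 2.89 against 3.71, 4.72 and 4.62. Neurl1a (0.211 to 0.247 RPKM over all samples) and Neurl1b did not pass the filter. Neurl1b was higher in NPCs, with 0.00652 to 0.016 RPKM in ESCs against 0.31 to 0.47 in NPCs.

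In receptor processing, 4 of 6 genes for folding, glycosylation and the first cleavage passed the filter, 2 rose and 2 fell. Furin, the convertase that makes the first cut, had 1.65, 1.93 and 0.949 RPKM in ESCs and 4.96, 5.81 and 5.49 in NPCs. Rfng, 1 of 3 Fringe glycosyltransferase genes, moved the other way, with 15.6, 16.1 and 16.7 RPKM in ESCs and 5.82, 6.20 and 6.28 in NPCs. Their log2 differences were 1.37 and −1.27, or 1.20 and −1.25 without ESC replicate 3. The other Fringe genes, named here after their values were seen, did not pass the filter and were higher in NPCs: Lfng had 0.0964, 0.148 and 0.103 RPKM in ESCs against 0.980, 1.37 and 1.65, and Mfng had 0.117 to 0.143 against 0.598 to 0.637. Without the filter 4 of the 6 genes rose and 2 fell. Of 9 genes for ADAM proteases and gamma-secretase, 6 passed the filter and 4 rose, led by Adam10, the protease of the ligand-induced cut, with 0.563, 0.506 and 0.355 RPKM in ESCs and 1.90, 1.74 and 1.65 in NPCs. Of 10 genes for receptor turnover and inhibition, 6 passed the filter, and 5 rose and 1 fell. Among them were the Deltex genes Dtx4 and Dtx1, which encode ubiquitin ligases and whose directions the filter fixed. Dtx4 rose from 0.0470, 0.0407 and 0.0146 RPKM in ESCs to 3.45, 3.14 and 3.85 in NPCs. Dtx1 fell from 1.12, 1.12 and 1.18 RPKM to 0.0993, 0.113 and 0.0976.

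Of 9 genes of the nuclear activating complex, 5 passed the filter, and 2 rose and 1 fell. Without the filter all 9 were tested, and 4 rose and 2 fell. Maml1, a Mastermind coactivator, rose, with 1.10, 1.26 and 0.534 RPKM in ESCs and 2.54, 2.47 and 2.68 in NPCs. Kat2a, a histone acetyltransferase, fell, with 22.5, 24.3 and 20.8 against 17.4, 18.2 and 18.0. Rbpj itself, named here after its values were seen, had 0.604, 0.601 and 0.426 RPKM in ESCs and 0.537, 0.495 and 0.510 in NPCs over a gene body of 191 kb. Its groups overlapped through ESC replicate 3 alone, and Rbpj did not pass the filter. Among 8 corepressors, 6 passed the filter, and 3 rose and 1 fell. Without the filter all 8 were tested, and 4 rose and 2 fell. Ctbp1 rose, with 3.05, 3.42 and 3.56 RPKM in ESCs and 9.86, 9.95 and 10.3 in NPCs. Ctbp2 and Cir1, named after their values were seen, did not pass the filter. Ctbp2, over a gene body of 137 kb, was lower in NPCs, with 6441, 6556 and 4171 reads in ESCs against 2696, 2361 and 2989. Cir1 was higher in NPCs, with 271, 187 and 252 reads against 339, 282 and 304. The histone deacetylase gene Hdac1 fell, with 10.0, 10.0 and 9.54 against 4.46, 4.13 and 4.08. Of 6 genes of the Groucho family, whose full-length Tle proteins work with Hes repressors, 3 passed the filter, and 2 rose and 1 fell. This balance moved in settings that tested more of the 6 genes. Without the filter all 6 were tested, and 3 rose and 2 fell. With values per exon length 5 were tested, and 2 rose and 3 fell. With limma voom on the reads 6 were tested, and 3 rose and 3 fell. What part the scale had in this was not tested. Tle4 and Tle6, also named after their values were seen, did not pass the filter and were lower in NPCs, with 0.541 to 0.736 and 0.488 to 0.591 RPKM in ESCs against 0.384 to 0.402 and 0.0548 to 0.0974. Tle2, named likewise, did not pass the filter either and was higher in NPCs, with 0.070 to 0.15 RPKM in ESCs against 0.20 to 0.26. Tle3 rose, with 4.52, 4.83 and 2.74 RPKM in ESCs and 9.51, 9.66 and 9.36 in NPCs. Aes, which encodes a short relative of the Tle proteins, fell, with 26.7, 31.3 and 48.7 against 21.2, 22.5 and 23.1, a log2 difference of −0.61 and an adjusted p of 0.0438 by limma with Benjamini-Hochberg adjustment. Without ESC replicate 3 the difference of Aes was −0.37 and also passed the test. Falls among the other pathway genes numbered 4 without ESC replicate 2, without any 1 of the NPC samples, and with quantile normalization. Which falls were lost there, and whether that of Aes was among them, is not given here.

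**Figure D4:**
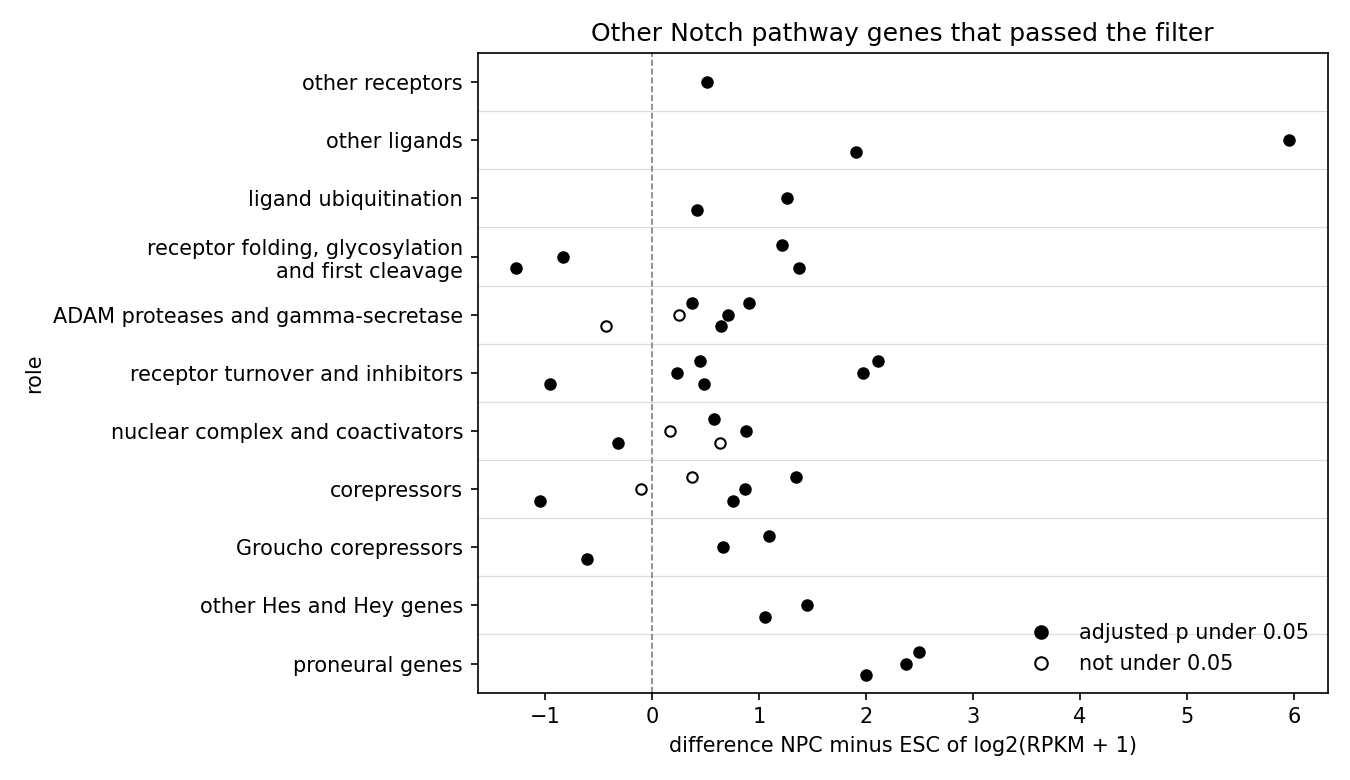
Difference NPC minus ESC of log2(RPKM + 1), on the horizontal axis, of the 40 other pathway genes that passed the filter, in rows by role; points are genes, filled where the adjusted p of limma was under 0.05, and are spread vertically within a row only to keep them apart. Of the 40, 28 filled points lie to the right of 0 and 6 to the left.

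Of 7 further Hes and Hey genes, 2 passed the filter and both rose, Heyl through NPCs alone. Heyl had 0.0054, 0.00182 and 0 RPKM in ESCs and 1.55, 1.81 and 1.85 in NPCs. The proneural genes Neurog1 and Neurog2, of a class that Hes and Hey repressors are known to hold down, rose together with Hes5 and Hey1; whether the changes are linked was not tested. Neurog1 had 0.0523, 0.0352 and 0.116 RPKM in ESCs and 4.23, 4.70 and 6.30 in NPCs. Neurog2 was listed at 0 in all ESC samples and had 2.96, 2.75 and 3.29 in NPCs. Both were near or at 0 in every ESC sample. Atoh1 had 0 to 0.0346 RPKM over all samples and did not pass the filter, nor the test without the filter.

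Some of the listed genes share exonic sequence with other annotated genes: Notch1 with 0610009E02Rik and Gm13568, Notch3 with Gm17276, Dll1 with A930024N18Rik and Hes5 with Gm20421, all on the opposite strand, and Notch2 with Gm42820 on the same strand. Use of strand in the counting is not given in the sources used here, so that reads of these partners cannot be told apart from those of the Notch pathway genes.

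The same study mapped nucleolus-associated domains (NADs) in ESCs and NPCs by Nucleolar-DamID, in which the DNA methyltransferase Dam is brought to the nucleolus and marks the chromatin there. These maps came from engineered E14 lines with a transgene for H2B-Dam or H2B-Dam-NoLS, as ESCs or as NPCs derived from them, in which doxycycline (100 ng/ml) and Shield1 (1 µM) induced the fusion protein for 15 h, and not from the cells used for RNAseq. The question put here was where the 10 genes lie relative to these domains. In ESCs 1 of the 10 overlapped a NAD, Hey1, and in NPCs 1 did, Jag1, while 26.9% and 21.4% of all 21614 genes with a position did so. The score of a NAD compares H2B-Dam-NoLS, the nucleolar fusion, with H2B-Dam, which has no nucleolar signal. Hey1, which rose in NPCs (chr3:8663359-8667256, GRCm38), lay inside an ESC NAD at chr3:8400193-8900048 with a score of 0.0184, below the median of 0.0256 of the list, and 133 kb from the nearest NPC NAD. Jag1 (chr2:137081456-137116644) lay inside an NPC NAD at chr2:136899779-138400265 with a score of 0.0384, below the median of 0.0413, and 682 kb from the nearest ESC NAD. The lists hold 1 score per domain and no replicate values, so that the overlaps have no error estimate.

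The other 8 genes were outside the NADs of both cell types. Nearest to one were Dll1 (chr17:15367354-15376872), 24.3 kb from an ESC NAD and 323 kb from an NPC NAD, and Notch3 (chr17:32120820-32166852), 33 kb from an ESC NAD and 533 kb from an NPC NAD. Hes1 (chr16:30064384-30067796) lay 233 kb from a domain listed in both cell types. Notch1 (chr2:26457903-26516663) was 457 kb from the nearest NAD in ESCs and 184 kb in NPCs. For Notch2 (chr3:98013527-98150361) the distances were 513 kb and 450 kb, and for Dll3 (chr7:28293553-28302238) 294 kb and 1790 kb. Jag2 (chr12:112907819-112929776) lay 3370 kb and 3210 kb away, and Hes5 (chr4:154960923-154962371) 4560 kb and 5660 kb, the farthest of the 10.

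Hes5 is the 1 listed Hes or Hey gene with a promoter in the RefSeq table used (GRCm38.p6); Hes1 and Hey1 have no entry. Its 250 bases before the transcription start were searched for TGGGAA, the core of the RBPJ binding motif, and for the longer GTGGGAA that contains it, on both strands. Both were found 2 times, at the same places: TTCCCAC, the reverse complement, at chr4:154960697-154960703 and GTGGGAA at chr4:154960840-154960846. Of 32851 promoter windows of the same length, 21.6% held TGGGAA and 5.42% held GTGGGAA on either strand. Of all 5 Hes and Hey genes of the lists with a promoter in the table, 4 held TGGGAA and 3 held GTGGGAA, and these include Helt, listed at 0 in all 6 samples, for TGGGAA and Hes7, with 0 to 0.229 RPKM, for both. A match is a description of the letters and not a measured site. The window chr4:154960673-154960922, on the plus strand, is printed 5′ to 3′ with the matches in capitals.
Hes5: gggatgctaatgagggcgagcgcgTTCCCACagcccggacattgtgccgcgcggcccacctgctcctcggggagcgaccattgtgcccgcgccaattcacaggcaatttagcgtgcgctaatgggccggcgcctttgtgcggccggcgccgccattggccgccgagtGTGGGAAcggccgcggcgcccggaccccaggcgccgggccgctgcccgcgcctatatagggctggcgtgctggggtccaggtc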

How the data were processed

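For RNAseq, the authors filtered rRNA (SortMeRNA) and trimmed (Trimmomatic) the reads, used STAR for alignment to mm10, took exon coverage with a pipeline of their own, and deposited RPKM values per gene; the processing notes of the submitters also name Bowtie2 2.3.4.3, Subread 1.4.6-p4 and deepTools 3.2.1. The authors deposited 1 score per NAD, for peaks found in both DamIDseq replicates. NAD starts count from 0 and are printed 1 higher. Reads were recovered from RPKM with gene lengths of GENCODE M21 (Notch3: 46060 bases in place of 46032). Among the 116 listed genes, 109 gave whole reads this way, 5 with another length (Notch3, Acta2, Dtx4, Gata6 and Tle4) and 2 with none (Aqp4 and Sox10). limma 3.58.1 in R 4.3.3 (lmFit, eBayes with trend), tested on simulated data, compared log2(RPKM + 1). Python 3.11.15, numpy 2.4.6, pandas 2.3.3 and matplotlib 3.10.9 did the rest. Besides the 10 genes, the text names per role the gene with the largest significant rise and fall, roles of 4 or fewer genes whole, and markers. A result that this rule would name is not reported here. Genes and lists were chosen with earlier results of these data known. Alternatives were pseudocounts of 0.1 and 5, no filter, a mean of at least 1 RPKM, quantile normalization, median scaling, eBayes without trend or robust, a replicate block, equal symbols summed, each sample left out and, chosen after seeing the data, values per exon length, limma voom on reads (at least 10 in 3 samples), and these and no filter without ESC replicate 3.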

Additional observations from a re-analysis of the deposited data

How the results depend on the processing

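Notch2, Notch3, Dll1, Hes5 and Hey1 kept their direction and stayed past the threshold in every alternative that tested them; a mean of at least 1 RPKM left Dll1 out. All 5 passed the main filter through NPCs alone, which fixes their direction wherever that filter was kept. Their unchanged direction in those alternatives is therefore no separate support. Without the filter, 11541 genes were called (7294 higher and 4247 lower in NPCs), with values per exon length 8593 (5090 higher), and with limma voom on the reads 10761 (6679 and 4082), from more genes tested. The same 3 settings without ESC replicate 3 gave 13440 (7818 and 5622), 10478 (5840 and 4638) and 12826 (7513 and 5313). Settings per exon length and voom, and all combinations with ESC replicate 3 left out, were chosen after seeing the data; the median log2 difference of all tested genes was 0.21 per exon length and 0.38 with voom. Quantile normalization gave 2702 higher and 3022 lower, and a mean of at least 1 RPKM 2415 and 2528. With 1 sample left out at a time, 4661 to 6951 genes were called, 2533 to 3464 higher and 2119 to 3487 lower.

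Other pathway genes higher in NPCs numbered 44 without the filter, 45 without filter and ESC replicate 3, 44 with voom without that library, 26 with a mean of at least 1 RPKM and 23 with quantile normalization. Lower in NPCs were 11 and 13 without the filter, with and without ESC replicate 3, 12 and 14 per exon length, and 12 and 14 with voom. They numbered 4 with quantile normalization, 5 with a mean of at least 1 RPKM and 5 with a replicate block, where the main test gave 6. Leaving out 1 sample at a time gave 26 to 30 higher and 4 to 6 lower.

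Log2 differences of Dll3 were 0.77 without the filter, 1.41 per exon length and 2.60 with voom, and 0.82, 1.52 and 2.91 without ESC replicate 3. Those of Jag2 were 0.56, 0.93 and 1.37, and 0.49, 0.79 and 1.12 without ESC replicate 3. Jag1 passed the threshold with quantile normalization (−0.79), with median scaling (−0.39) and without ESC replicate 3 (−0.55, also without the filter; −0.85 per exon length, −0.95 with voom), and was −0.55 to −0.24 over the left-out samples. Notch1 passed in 1 alternative, voom without ESC replicate 3, with 0.24. Hes1 turned to 0.18 with quantile normalization and, without ESC replicate 3, to 0.0867 with or without the filter, 0.0893 per exon length and 0.0923 with voom; over the left-out samples it was −0.14 to 0.0867. The NADs scoring at or above their median held 0 of the 10 genes in ESCs and 0 in NPCs, against 16.4% and 12.2% of all genes; the domains of Hey1 and Jag1 score below it. Beyond fewer samples or more genes tested, the cause of these changes was not tested.

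Deviations from the group means had correlations of 0.114, −0.0809 and 0.0335 between ESC and NPC samples of the same replicate number. ESC replicate 3 dominates the ESC deviations, so that this check cannot decide whether the replicate numbers pair the samples. Used as a replicate block, the replicate numbers gave 5265 called genes, and the block changed no call among the 10 genes. Depth limits the ESC levels of Dll1, with 7, 7 and 5 reads, and of Hes5, with 0 reads in every library.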
